A study of Mus musculus with 2 samples.

Results

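The miR-26 family of the mouse consists of 3 microRNA (miRNA) genes, Mir26a-1, Mir26a-2 and Mir26b, and its members were taken by name from the GENCODE M21 annotation. All 3 were in the tables, among 2202 miRNA genes in all. The short RNA sequenced came from hippocampal tissue of B6CASTF1/J females, a first-generation cross between C57BL/6J and CAST/EiJ, at an age of 25 days. The 2 libraries are biological replicates 1 and 2 of 1 group, with no treatment named. The labels name the tissue as a layer of the hippocampus without saying which one. They also give both samples the same donor identifier, so it is not stated whether these were separate animals, and a difference between the libraries measures the spread between these samples only.

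A miRNA gene is transcribed as part of a longer RNA, from which a hairpin is cut out and trimmed to short mature strands, 5p from its left arm and 3p from its right arm. Bases 2 to 8 of a mature strand, the seed, set most of the pairing with target messages. The miR-26 hairpins lie within Ctdsp genes, which encode small phosphatases of the RNA polymerase II tail. These phosphatases act with the repressor REST, which silences neuronal genes outside neurons. miR-26b is known to repress Ctdsp2 during neural differentiation, and miR-26 strands also target the message of the chromatin regulator Ezh2.

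The 5p strands are shown because the counts below turn on where they differ. They come from RefSeq (GRCm38.p6), are written 5′ to 3′, and have the seed in capitals.
miR-26a-5p: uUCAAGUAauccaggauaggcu
miR-26b-5p: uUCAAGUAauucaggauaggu
The miR-26a-5p strand, of 22 bases, is encoded identically by Mir26a-1 and Mir26a-2. The miR-26b-5p strand, of 21 bases, comes from Mir26b. Counted from 1 at the 5′ end of miR-26a-5p, miR-26b-5p carries the substitutions C11U and C21U, so 19 of 21 compared positions are identical. The seed is the same, and miR-26a-5p and miR-26b-5p are the only mature strands with that seed in the RefSeq table.

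The 3p strands differ at all 3 loci, and they are shown with the same marking.
miR-26a-1-3p: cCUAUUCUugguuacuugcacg
miR-26a-2-3p: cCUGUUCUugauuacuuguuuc
miR-26b-3p: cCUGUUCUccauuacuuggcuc
The seed of miR-26a-2-3p equals that of miR-26b-3p. The substitution A4G, from miR-26a-1-3p to either of the others, sets miR-26a-1-3p apart within the seed. Over the whole strand, miR-26a-2-3p matches miR-26b-3p at 18 of 22 positions and miR-26a-1-3p at 16, and miR-26a-1-3p matches miR-26b-3p at 14.

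The hairpins show how far the identity of the miR-26a loci runs. Here the capitals mark both mature strands, and all 3 lie on the plus strand of GRCm38.p6 (mm10).
Mir26a-1, chr9:119031796-119031885: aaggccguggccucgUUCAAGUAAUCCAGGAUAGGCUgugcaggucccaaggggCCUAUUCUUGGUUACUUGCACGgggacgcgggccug
Mir26a-2, chr10:126995530-126995613: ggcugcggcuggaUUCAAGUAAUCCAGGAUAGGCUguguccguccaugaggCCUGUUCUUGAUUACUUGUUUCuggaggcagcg
Mir26b, chr1:74394310-74394394: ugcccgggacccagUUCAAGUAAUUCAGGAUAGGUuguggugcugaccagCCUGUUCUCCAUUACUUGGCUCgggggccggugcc
Mir26a-1 and Mir26a-2 are identical over 25 bases, which are the whole 5p strand and the next 3 bases after it, and no base before it. A read that starts at the first base of miR-26a-5p therefore has to be at least 26 bases long to tell these hairpins apart. The longest stretch that Mir26b shares with another miR-26 hairpin is 11 bases. Of the windows of 22 bases, 4 of 69 in Mir26a-1 and 4 of 63 in Mir26a-2 occur in another miRNA hairpin, in each case the other miR-26a copy. None of the 64 windows of Mir26b does. The hairpin map shows that the stretch covers the whole 5p arm and misses the whole 3p arm.

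**Figure D1:**
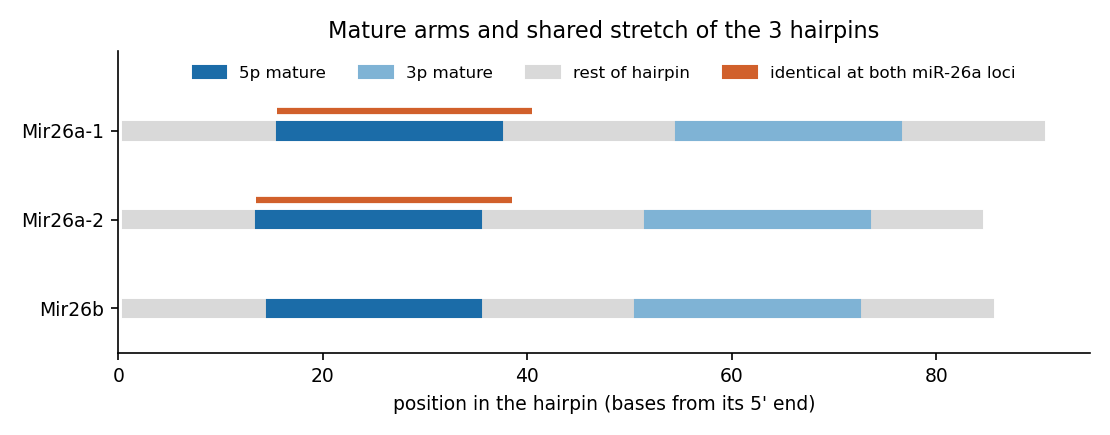
Position in bases from the 5′ end of each hairpin (x axis) for the 3 genes (rows), with the 5p strand in dark blue, the 3p strand in light blue and the rest in grey. The orange line above the miR-26a hairpins marks the 25 bases that are identical at both, and Mir26b has no such stretch.

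Each hairpin lies on the strand of its host gene. Mir26a-1 (ENSMUSG00000065513.1) is in intron 5 of Ctdspl, with 1543 bases to the exon before it and 1650 to the exon after it. Mir26a-2 (ENSMUSG00000065430.1) is in intron 5 of Ctdsp2, 1621 bases after one exon and 241 before the next. Its last base is also the first base of 2 further annotated Ctdsp2 transcripts, so it touches an exon by 1 base. Mir26b (ENSMUSG00000065468.1) is in intron 4 of Ctdsp1, with 234 bases before it and 245 after it. No gene other than its host overlaps any of the 3 hairpins in GENCODE M21, on either strand.

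The tables account for 15474606 reads in replicate 1 and 13677083 in replicate 2. Reads assigned to miRNA genes, in the strand column that holds most of them, numbered 5481053 and 4266963. Levels are CPM, counts per 1000000 of these. Reads that match several places, 41.9% and 46.4% of all reads, have a row of their own and enter no gene. Genes at 2 CPM or more in both libraries were called detected, and 433 genes were. The tables come from different libraries: their counts gave a chi-square statistic of homogeneity of 1621 for each of its 819 degrees of freedom. As a check of the tissue, 10 of 13 neuronal miRNA genes were detected, and the list took 4.59% and 5.04% of the gene counts of replicates 1 and 2. These sums hide differences: 6 of the detected ones were higher in replicate 2 by more than 1.5-fold and 3 lower, with library totals. Over 579 genes with at least 10 counts in sum, 41.1% were higher by that much and 28.2% lower.

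Mir26b was one of the more abundant miRNA genes of the tissue, and it held almost all counts of its family. It had 28609 counts in replicate 1 and 24906 in replicate 2, or 5220 CPM (exact 95% Poisson interval 5159 to 5280) and 5837 CPM (5765 to 5910). The mean was 5528 ± 437 CPM (SD, n = 2). The libraries are close to each other here, and the gene ranked 39 and 38 of 2202 by CPM in replicates 1 and 2. All of its reads were in the main strand column, with 0 counts on the other strand, and the column without strand gave the same counts. The intervals cover counting error only, since reads copied by PCR from 1 molecule are not separate molecules.

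Mir26a-2 was low. It had 230 counts in replicate 1 and 53 in replicate 2, or 42.0 CPM (36.7 to 47.8) and 12.4 CPM (9.30 to 16.2), with a mean of 27.2 ± 20.9 CPM (SD, n = 2). Replicate 1 was the higher library, and the counting intervals do not overlap. Its rank by CPM was 246 in replicate 1 and 321 in replicate 2.

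Mir26a-1 was lower still. It had 33 counts in replicate 1 and 17 in replicate 2, or 6.02 CPM (4.14 to 8.46) and 3.98 CPM (2.32 to 6.38), and the mean was 5.00 ± 1.44 CPM (SD, n = 2). The intervals of the libraries overlap. Both values lie above the floor of 3 counts that a count of 0 would allow (0.547 and 0.703 CPM in the respective libraries). Like Mir26b, neither miR-26a gene had a count on the other strand.

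The order Mir26b, Mir26a-2, Mir26a-1 was the same in both libraries, and the ranges of the 3 genes over the libraries do not overlap. This is an order of reads that match 1 place, and not of the mature strands. Reads of at most 25 bases within the stretch the miR-26a loci share are in neither gene's count, so Mir26a-1 and Mir26a-2 are no measure of miR-26a-5p. How many of the reads with several places were miR-26a-5p was not analysed here. The counts are per gene and do not separate arms, so it is also not known whether the reads at the miR-26a genes were 3p strands or longer or shifted 5p reads.

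Together the 3 genes made up 0.527% of all miRNA counts of replicate 1 (exact Clopper-Pearson 95% limits 0.521 to 0.533) and 0.585% of those of replicate 2 (0.578 to 0.593), a mean of 0.556% ± 0.0414 (SD, n = 2). Within the family, the share of Mir26b was 99.1% (98.97 to 99.20) in replicate 1 and 99.7% (99.65 to 99.78) in replicate 2. Mir26a-2 held 0.797% (0.697 to 0.906) and 0.212% (0.159 to 0.277). The share of Mir26a-1 was 0.114% (0.0787 to 0.160) and 0.0681% (0.0397 to 0.109). The family share thus follows Mir26b, and the miR-26a genes add little to it in either library.

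The balance of the miR-26a copies leaned to Mir26a-2 in both libraries. There were 6.97 Mir26a-2 counts per Mir26a-1 count in replicate 1 (95% interval 4.82 to 10.4) and 3.12 in replicate 2 (1.78 to 5.74). The ratio of these odds, replicate 1 over replicate 2, was 2.23 (exact conditional interval 1.08 to 4.49). The balance therefore shifted by more than counting error, with a lower bound close to 1.

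Against the difference between libraries that miRNA genes show in general, Mir26b was steady. Replicate 2 over replicate 1 was 1.12 (exact 95% interval 1.10 to 1.14) with library totals. Its direction depends on the scaling: it was 0.872 with TMM and 0.871 with DESeq2 size factors, which take the median log2 ratio over the detected genes from 0.27 down to -0.07. Under none of these was it past 1.5-fold. Of the 218 genes with a mean CPM of at least 100, 148 were past 1.5-fold in one direction or the other, a background of 67.9%. Only 17 of the 218 had a ratio nearer to 1 than Mir26b with library totals. With 1 library on each side these ratios describe the libraries and have no replicate check.

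The miR-26a genes were both past 1.5-fold and lower in replicate 2. Mir26a-2 was 3.38-fold lower (2.50 to 4.64). Mir26a-1 was 1.51-fold lower with an interval of 0.818 to 2.89, which includes no difference. Among the 215 detected genes with a mean CPM under 100, 58.1% were past 1.5-fold in either direction and 19.1% were lower in replicate 2 by that much. The ratio of Mir26a-2 is in the low tail of these, since 11 of the 215 had a lower one, while 39 had a lower one than Mir26a-1. Both stayed past 1.5-fold and lower with TMM and DESeq2 size factors, for which no background is given. Relative to Mir26b, a comparison that needs no scaling, the odds of Mir26b over Mir26a-2 were 3.78 times higher in replicate 2 (2.79 to 5.20). For Mir26b over Mir26a-1 the factor was 1.69 (0.914 to 3.24), so that difference was not detectable at this depth.

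**Figure D2:**
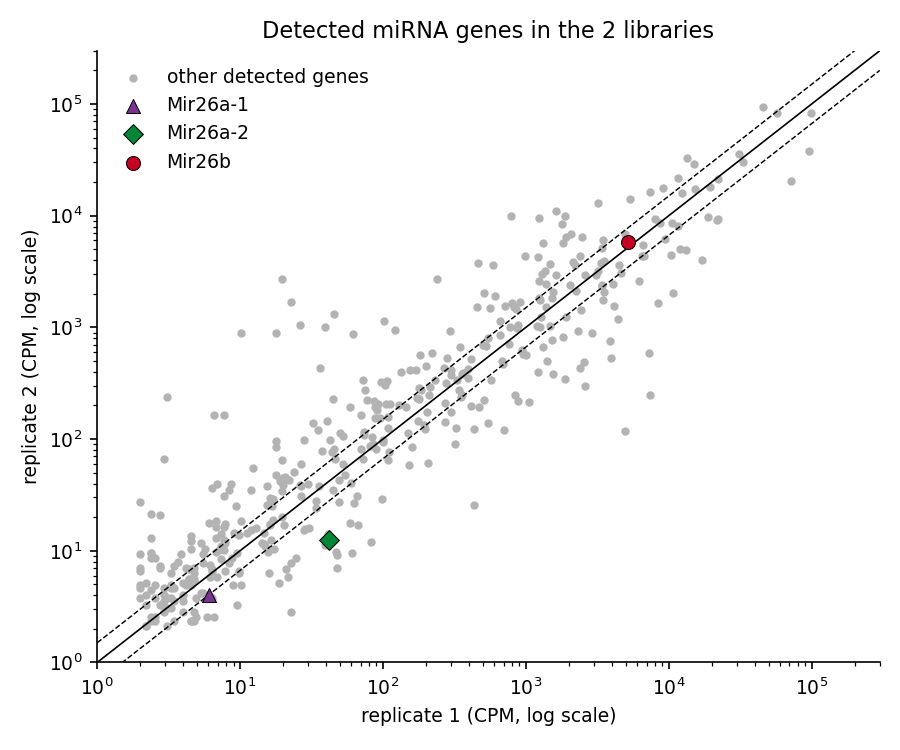
CPM in replicate 1 (x axis) and replicate 2 (y axis), both on log scales, for the 433 detected genes. The solid line marks equal CPM and the dashed lines a 1.5-fold difference. Mir26b lies between the dashed lines, and Mir26a-2 and Mir26a-1 lie below them, Mir26a-1 by a margin too small to see.

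The genes whose levels were nearest to each member were found by the Euclidean distance of log2(CPM + 1) over the 2 libraries, among detected genes. For Mir26b they were Mir100 (distance 0.068), Mir342 (0.24) and Mir541 (0.35). Mir100 was at 5466 and 5890 CPM, almost the level of Mir26b in each library. For Mir26a-2 they were Mir7047 (0.16), Mir451a (0.17) and Mir7240 (0.34), all higher in replicate 1. Mir451a, which red blood cells hold in large amounts, was at 41.4 CPM in replicate 1 and 14.1 in replicate 2. Mir486, of the same erythroid list, went the other way, from 21.9 to 43.1 CPM. For Mir26a-1 they were Mir6959 (0.10), Mir6990 (0.13) and Mir6971 (0.17), none above 6.39 CPM in either library. Likeness over 2 libraries is a likeness of level and of 1 difference.

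The family of miR-103 and miR-107 has a similar layout and gave a similar division of counts. Its hairpins lie in introns of the pantothenate kinase genes Pank3 (Mir103-1), Pank2 (Mir103-2) and Pank1 (Mir107), and Mir103-1 and Mir103-2 encode the same 3p strand.
miR-103-3p: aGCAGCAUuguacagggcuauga
miR-107-3p: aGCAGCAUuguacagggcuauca
They are shown with the seed in capitals because they differ only near the 3′ end. Mir103-1 and Mir103-2 are identical over 27 bases, and Mir107 shares 24 bases with each. Of the windows of 22 bases in Mir107, 5 of 66 occur in the Mir103 hairpins. Mir107 is thus less set apart than Mir26b, which shares at most 11 bases, and its count can miss reads within the shared stretch.

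Mir107 had 1627 CPM in replicate 1 and 2947 in replicate 2. Its share of its family's counts was 98.5% and then 98.2%. Mir103-2 was at 20.6 and 45.7 CPM, and Mir103-1 at 3.83 and 9.37. In each family the copies with the same main strand were thus at most 45.7 CPM, and the gene with a strand of its own was at 1627 CPM or more.

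The families differed in how they moved between libraries. Mir107 was 1.81-fold (1.76 to 1.86) higher in replicate 2 with library totals and 1.41-fold with either other scaling. The odds of Mir107 over Mir26b, which need no scaling, were 1.62 times higher in replicate 2 (1.57 to 1.67). There were 3.21 Mir26b counts per Mir107 count in replicate 1 and 1.98 in replicate 2. Mir103-2 was 2.22-fold (1.75 to 2.82) and Mir103-1 2.45-fold (1.41 to 4.37) higher in replicate 2, whereas Mir26a-2 was lower there. Both Mir103 genes were still past 1.5-fold with the other scalings. With library totals, 39.1% of the 215 detected genes with a mean CPM under 100 were higher by that much. Among the 218 genes with a mean CPM of at least 100, which include Mir107, it was 39.9%. No background is given for the other scalings. The balance of Mir103-2 over Mir103-1 was 5.38 in replicate 1 and 4.88 in replicate 2, with a ratio of odds of 1.10 (0.601 to 2.07), so no shift was detectable at this depth.

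**Figure D3:**
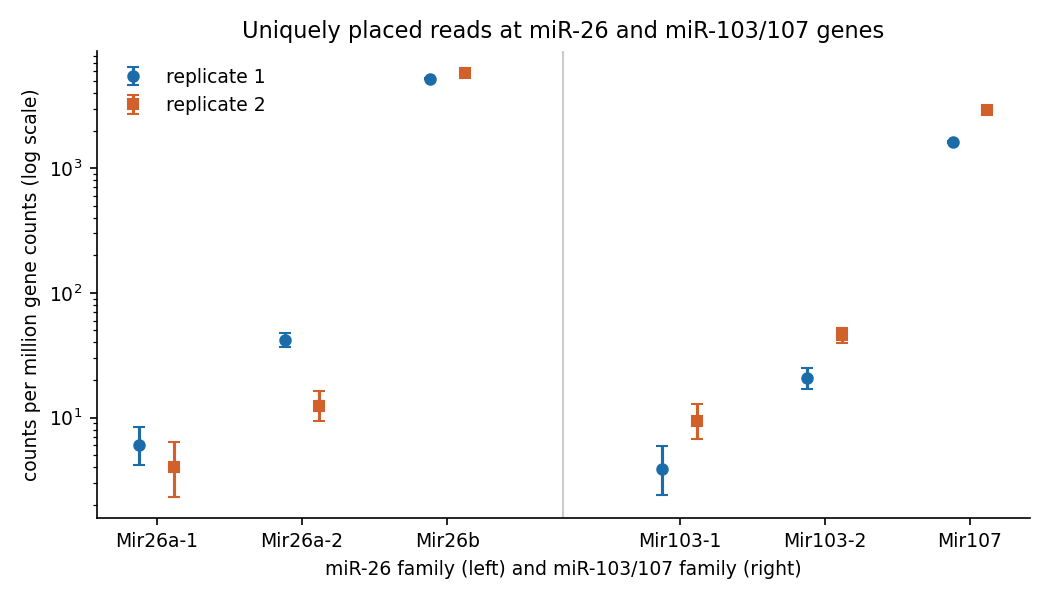
CPM on a log scale (y axis) in replicate 1 (circles) and replicate 2 (squares) for the miR-26 genes on the left and the Pank-hosted genes on the right, with exact 95% Poisson intervals. Mir26b and Mir107 stand far above the copies with a shared strand. Mir26a-2 is higher in replicate 1, and all 3 Pank-hosted genes are higher in replicate 2.

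The duplicated let-7 loci all had higher counts than the miR-26a genes. Among 6 let-7 loci that have a copy elsewhere, Mirlet7c-2 was at 2404 CPM in replicate 1 and 4400 in replicate 2, and Mirlet7f-2 at 2615 and 2916. Mirlet7f-1, the lowest of them by mean CPM, was at 109 and 126 CPM. The other three (Mirlet7a-1, Mirlet7a-2 and Mirlet7c-1) lay between 105 and 1130 CPM, so each of the 6 was above Mir26a-2 and Mir26a-1 in both libraries. The longest identical stretch within these pairs is 22 bases for Mirlet7f-1 and Mirlet7f-2, 23 for Mirlet7c-1 and Mirlet7c-2, and 23 for Mirlet7a-1 and Mirlet7a-2. Across pairs, Mirlet7a-1 and Mirlet7c-2 share 26 bases with each other, in other windows than those either shares with its pair partner. That stretch is longer than the 25 bases of the miR-26a loci. Mirlet7a-1 had a mean of 406 CPM and Mirlet7c-2 of 3402 CPM. Both enter the comparison over all detected genes below with that length. Of the 6 loci, 4 were past 1.5-fold and higher in replicate 2 with library totals, and none was lower by that much. The background with library totals was 41.1% higher and 28.2% lower, over 579 genes that have 10 or more counts in total. With either other scaling 1 locus was past 1.5-fold and higher and none lower, and no background is given for those scalings.

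Over all detected genes with a hairpin in the RefSeq table (371 of 433), 52 share at least 22 bases with another miRNA hairpin of that table. A copy absent from it was not compared, so the other 319 can include genes that share a strand with such a copy. The median of the 52 was 130 CPM, and that of the other 319 was 120 CPM. Both sets hold detected genes only, so copies under 2 CPM in either library are in neither median. Mir26a-1 had the lowest mean CPM of the 52, and Mir26a-2 ranked 43. At a longest stretch of 25 bases there were 4 genes, the miR-26a pair and the pair Mir29b-1 and Mir29b-2, with means from 5.00 to 47.4 CPM. The 20 genes with a longest stretch of 24 to 26 bases ranged from 5.00 to 4395 CPM, with a median of 122 CPM. Across the 52 genes, Spearman's rho of stretch length and mean CPM was -0.27, a weak relation over genes that share both libraries. Mir26b ranked 33 of the 319. How much of the low count of the miR-26a genes comes from reads with several places was not tested.

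**Figure D4:**
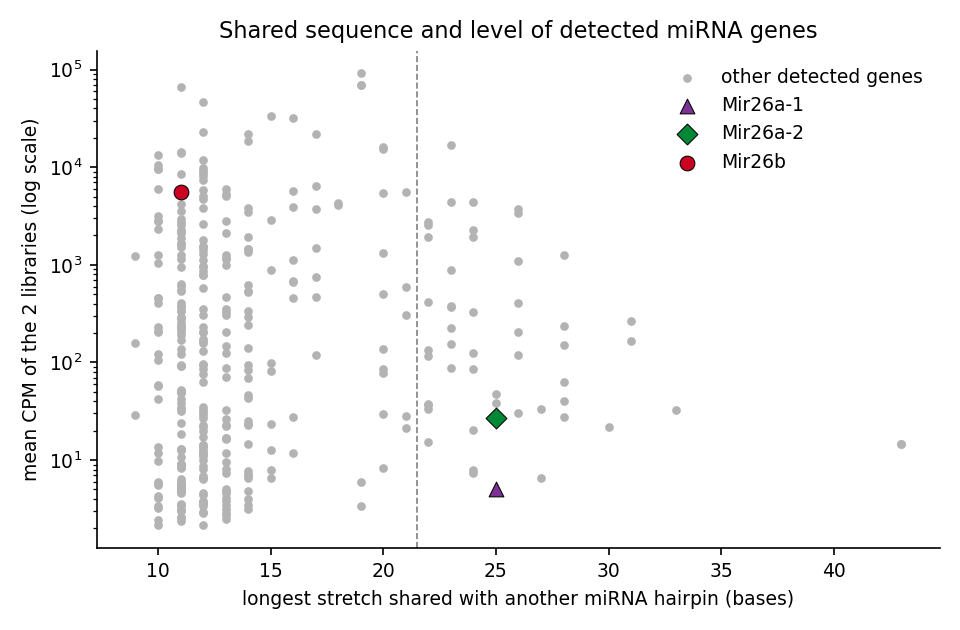
Longest stretch in bases that a gene's hairpin shares with another miRNA hairpin of the RefSeq table (x axis) and mean CPM on a log scale (y axis) for 371 detected genes. The dashed line separates the 52 genes with at least 22 shared bases, among which Mir26a-1 is the lowest, from the others, among which Mir26b ranks 33.

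Genes reported to be held down by REST, for which the Ctdsp phosphatases are cofactors, were split in direction. Of 11 such miRNA genes 8 were detected, 2 of them past 1.5-fold and higher in replicate 2, 5 past it and lower, and 1 within it, under all 3 scalings. The background over the 579 genes, with library totals only, was again 41.1% higher and 28.2% lower. The median log2 ratio was -1.80, and that of all detected genes 0.27. The higher genes were Mir9-1 (20.1 CPM in replicate 1 and 44.8 in replicate 2) and Mir9-3 (70.6 and 166), which act in neural progenitors and neurons. Activity-induced Mir132 (17142 and 4038 CPM) and its neighbour Mir212 (539 and 140) were lower. So were the maturation-linked Mir29a (7438 and 248), its neighbour Mir29b-1 (58.4 and 17.8) and Mir29b-2 (82.8 and 12.0). As they include neighbours, the 5 lower genes do not count as 5 separate loci. Mir124a-1 was at 3.28 and 4.69 CPM. Its ratio of 1.43 (0.717 to 2.86) was the nearest to 1 of the 8, and the interval includes the ratio of Mir26b. The longest stretch shared with another hairpin is 33 bases for Mir9-1, 26 for Mir9-3 and 25 for both Mir29b genes. Mir124a-1, which has further copies in this list, had no RefSeq hairpin to compare. As at the miR-26a genes, counts at such copies are no measure of the mature strands, so low counts here do not show low strand levels.

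Genes of other cell types in the dissection differed between the libraries beside these ratios. The oligodendrocyte list (3 of 4 detected, Mir219b at 1 count and 0) took 0.650% of replicate 1 counts and 0.0939% of replicate 2 counts. With library totals, 2 of its detected genes were past 1.5-fold and lower in replicate 2 (background 28.2% of 579 genes), whereas Mir219a-1 was higher, at 12.4 and 54.8 CPM. The hairpin of Mir219a-1 shares 22 bases with another hairpin, so its count can miss reads within that stretch. The choroid plexus and cilia list (4 of 6 detected, Mir449b at 0 and 3 counts) took 0.0982% and 0.230%. With library totals, its Mir449a was past 1.5-fold and higher in replicate 2, at 101 and 1139 CPM (background 41.1% of 579 genes). The other 3 detected genes of this list were within 1.5-fold. For the endothelial and mural list (3 of 3) the shares were 2.20% and 1.29%, for the microglia list (3 of 3) 0.0734% and 0.0623%, and for the erythroid list (3 of 3) 0.00881% and 0.00659%. These sums do not give the direction of every gene: in the microglia list Mir142 (42.9 and 98.2 CPM) and Mir223 (9.30 and 25.1) were higher in replicate 2 while Mir146 was lower (681 and 499.7), and in the erythroid list 2 genes were lower and Mir486 higher. Their part in the differences at the miR-26 genes was not tested. In bulk tissue, fewer cells of a type and less RNA per cell cannot be told apart.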

How the data were processed

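Reads were placed on mm10 and counted over GENCODE M21, per the deposited notes beside each table. The deposited tables hold raw read counts per miRNA gene as the authors made them, in 3 unnamed columns. Aligner, trimming and counter: not given in the sources used here. The column with most reads at genes was taken as the main strand, and the first was read as counts without strand. The 4 rows that name no gene stayed out of totals: unmapped reads were 17.1% and 17.2% of the 2 libraries, and reads outside miRNA genes 5.56% and 5.17%.

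All 2202 identifiers matched GENCODE M21. CPM, ratios and exact intervals were computed with Python 3.11.15 and scipy 1.17.1. The interval of the ratio was checked on simulated Poisson counts with known folds. Such counts vary by counting error only, so the check does not cover PCR copies or the spread between samples. TMM (edgeR 4.0.16) and DESeq2 1.42.0 gave alternative scalings. With 1 group there is no test between conditions and no p-value. CAST/EiJ alleles were not analysed here. Shared stretches were sought among RefSeq hairpins in the same orientation, and not in the whole genome. The genes named are the members, the Pank-hosted miR-103 and miR-107 genes, the 6 let-7 loci, the detected REST genes and the 3 genes nearest to each member. Mir219a-1, Mir219b, Mir449a, Mir449b, Mir142, Mir223, Mir146 and Mir486, of the lists of other cell types, were named after their values were seen. Members and lists were chosen with earlier results of these data known.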

Additional observations from a re-analysis of the deposited data

How the results depend on the processing

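Per 1000000 of all reads of the table, the mean fell to 1835 for Mir26b and 1.69 for Mir26a-1, as the larger total requires. The ratio of Mir26b left its counting interval under all 4 alternatives: 0.872 with TMM, 0.871 with DESeq2 size factors, 0.985 with all reads as the total and 1.10 with counts without strand. It stayed within 1.5-fold in each. The ratios of Mir26a-1 and Mir26a-2 stayed below 1 and inside their counting intervals under these 4 settings. Without replicate 1 or replicate 2, the mean of Mir26a-2 ranged from 12.4 to 42.0 CPM and that of Mir26b from 5220 to 5837 CPM. The nearest genes were the same 3 for each member without a filter and with log2(CPM + 10). No paired analysis was possible because there is 1 group. Counts of 17 to 53 limit both miR-26a genes in replicate 2.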
